A study of Mus musculus with 16 samples.

Results

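Livers of ethanol-fed mice given matrix-bound nanovesicles (EtOH+MBV, 4 libraries) were compared with livers of pair-fed mice given the same vesicles (PF+MBV, 4 libraries), across all expressed genes. These are 8 of the 16 libraries of the study, taken by their titles. Matrix-bound nanovesicles (MBV) are small vesicles held in the extracellular matrix, and all 8 livers had been exposed to them, so the comparison gives the effect of the diet in their presence. The ethanol diet followed the NIAAA model, in which chronic ethanol feeding is combined with an ethanol binge, and pair feeding matches the food intake of the control mice. What is called the effect of the diet here covers both parts, which cannot be told apart. The other 8 libraries have the same diets with vehicle (EtOH and PF, 4 each). They are used here for the spread of each gene and as a second measurement of the diet effect, from other libraries but with the same spread. The labels used here give no strain, sex, age, dose or source of the vesicles, and leave unsaid whether the 4 repeats of a group are different mice, so the spread behind each p-value is that of these samples and may be technical.

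The liver oxidises ethanol in hepatocytes through alcohol dehydrogenase and the cytochrome P450 Cyp2e1 to acetaldehyde, which Aldh2 oxidises to acetate. The load of reactive products is met by NRF2, a factor that turns on genes of glutathione and quinone defence, and by nuclear receptors such as CAR, which turn on drug-metabolising enzymes. Ethanol feeding is also known for fat storage, for endotoxin reaching the liver from the gut and for the acute phase proteins that hepatocytes then secrete, and for stress in the endoplasmic reticulum (ER).

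Gene counts came to 16.13 to 18.92 M per library over the 8, with 15021 to 15711 genes detected. Albumin (Alb), the defining hepatocyte transcript, stood at 83150 to 90110 CPM (counts scaled to library size) in EtOH+MBV and 62530 to 74310 CPM in PF+MBV. The groups did not overlap, and the difference did not pass (adjusted p = 0.194). Transcripts of the Y-linked gene Ddx3y were present in all 8 libraries, at 90.0 to 129 CPM in EtOH+MBV and 71.7 to 94.7 CPM in PF+MBV. EtOH+MBV 1 stood apart. In a principal component analysis of the 8 libraries, on an axis with 68.9% of the variance, EtOH+MBV 1 lay at 7.14, the other 3 EtOH+MBV libraries at 48.3 to 57.3 and the 4 PF+MBV libraries at -43.3 to -36.8. Several results that rest on it are given with and without it. Unmapped reads made up 12.6% ± 0.901 in EtOH+MBV and 14.9% ± 0.742 in PF+MBV, and reads with several genomic matches made up 7.23% ± 0.434 in EtOH+MBV and 5.14% ± 0.16 in PF+MBV (SD, n = 4 each). By exact permutation (2-sided), each of these 2 differences had p = 0.0286, the minimum for 4 against 4 libraries, with adjusted p = 0.0381 over 4 shares compared. The part of read quality in the results was not tested.

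Of 12901 genes tested, 4633 (35.9%) passed an adjusted p of 0.05, 2478 of them (19.2%) higher and 2155 (16.7%) lower in EtOH+MBV. The change was at least 2-fold for 729 of the higher and 676 of the lower genes. The 4 and 4 libraries did not overlap for 5035 genes (39%), and 3886 (30.1%) both passed and did not overlap. The median log2 fold change of all tested genes was -0.01. Scaled by library totals alone, which moved this median to -0.15, the calls were 1446 higher and 2686 lower, so counts near the background shares depend on the scaling. Without EtOH+MBV 1 the calls were 2777 higher and 2557 lower. Adjusted p-values of genes were computed with edgeR (quasi-likelihood F test, Benjamini-Hochberg over the 12901 genes), and levels are CPM. The standard error (SE) was back-computed from the test, as the absolute log2 fold change divided by the square root of F. It is an approximation that can be poor for genes nearly absent from a group. For Cfd it was 1.01 with MBV and 1.14 with vehicle, yet 0.289 for the difference between these effects. The largest changes were ranked over the 3625 genes that passed, did not overlap, are not predicted gene models and had a mean of 1 CPM or more where they were higher. Among these, the 15 largest rises were those of Cyp2b10, Lcn2, Atf3, Slc34a2, Saa2, Cux2, Saa1, Prrg4, Sult1e1, Psat1, Orm3, Ctsj, B4galnt4, Mt2 and Mt1. The 15 largest falls among them were those of Cfd, Hsd3b5, Clec2h, Gbp10, Ppp1r3g, Fads3, Pitx3, Adgrv1, Ugt2b38, Gpr12, Mup21, Olig1, Slc22a28, Mapk15 and Tspan18.

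**Figure D1:**
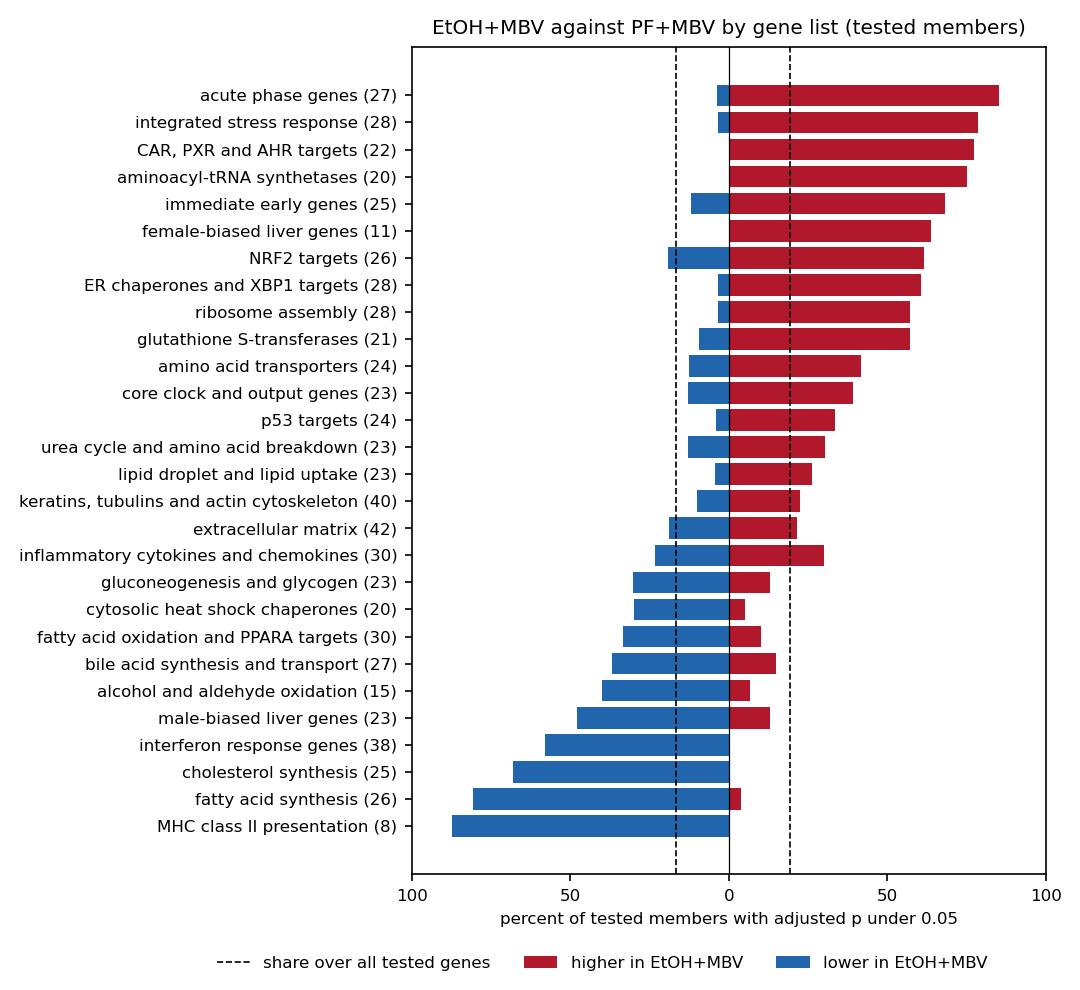
Percent of the tested members of 28 gene lists that passed an adjusted p of 0.05, with members higher in EtOH+MBV to the right and members lower to the left, and the number of tested members in brackets. Dashed lines mark the shares over all 12901 genes, 19.2% higher and 16.7% lower. Acute phase, stress and drug metabolism lists reach far beyond the right line, and lipid synthesis, interferon and MHC class II lists far beyond the left one.

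Targets of the drug-sensing receptors rose on the ethanol diet in most members tested. Of 22 tested targets of the receptors CAR, PXR and AHR, 17 were higher and 0 lower, with a median log2 fold change of 1.34. Among the 22, 3 averaged under 1 CPM in EtOH+MBV or PF+MBV, and 3 more listed genes were not tested. Genes so low in one group can pass the count filter only through groups in which they are high, so they add little to such counts. Cyp2b10, the cytochrome P450 that marks CAR activity in mice, stood at 578, 1672, 1061 and 1490 CPM in EtOH+MBV and at 2.82, 2.11, 10.3 and 7.39 CPM in PF+MBV. The groups were far apart, with EtOH+MBV 1 the lowest of its group, and the rise was 211-fold (log2 7.72 ± 0.84 SE, adjusted p = 1.47e-05). The gene lies on chromosome 7 from 25897620 to 25926624 (GRCm38). Cyp2c29 was at 2488, 5153, 3792 and 5238 CPM in EtOH+MBV and at 721, 669, 786 and 642 CPM in PF+MBV, a 5.92-fold rise without overlap (adjusted p = 1.78e-05). Cyp1a2, an AHR target of pericentral hepatocytes, rose 3.85-fold and Cyp3a13 4.85-fold. Other drug-metabolising families were mixed. Of 20 sulfotransferases and UDP-glucuronosyltransferases 5 were higher and 4 lower (median log2 -0.04), and of 13 carboxylesterases 2 were higher and 2 lower. In a fit of the 8 libraries alone 7 of the first family were lower, and 4 carboxylesterases were higher and 5 lower. The oestrogen sulfotransferase Sult1e1, one of the 15 largest rises, was at 1.81 CPM in EtOH+MBV 1 and 19.8 to 33.4 CPM in EtOH+MBV 2 to 4, against 0.411 to 0.833 CPM in PF+MBV (31.8-fold, adjusted p = 0.000142). Cyp2b, Cyp2c, Gst, Saa, Mup and Ugt2b genes have near-identical copies, and reads that match several places are not counted, so single values in these families are uncertain.

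Glutathione and quinone defence rose in part. Of 26 tested NRF2 targets, 16 were higher and 5 lower (median log2 0.88), and of 21 glutathione S-transferases 12 were higher and 2 lower (median 0.78). Gstm3, a glutathione S-transferase, stood at 357, 1282, 660 and 929 CPM in EtOH+MBV and at 28.6, 29.2, 22.96 and 64.05 CPM in PF+MBV. Every EtOH+MBV library exceeded every PF+MBV library, and the rise was 22.3-fold (log2 4.48 ± 0.37 SE, adjusted p = 1.91e-06). Gsta2 rose 5.75-fold. The quinone reductase Nqo1 was at 14.6, 21.3, 19.4 and 22.1 CPM in EtOH+MBV and 11.4, 4.16, 7.91 and 11.6 CPM in PF+MBV, a 2.21-fold rise (adjusted p = 0.0057). Gclc, the catalytic subunit of the first enzyme of glutathione synthesis, went the other way. Its levels were 132, 249, 187 and 164 CPM in EtOH+MBV and 504, 348, 316 and 392 CPM in PF+MBV, 2.13-fold lower (log2 -1.09 ± 0.25 SE, adjusted p = 0.00342).

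Metallothioneins, small proteins that bind zinc and copper, were among the largest rises. Mt1, on chromosome 8 from 94179082 to 94180327, was at 1438, 2828, 2955 and 3037 CPM in EtOH+MBV and at 76.1, 53.9, 178 and 139 CPM in PF+MBV. Its neighbour Mt2 was at 939, 1955, 2250 and 2440 CPM in EtOH+MBV and at 42.6, 24.8, 126 and 94.9 CPM in PF+MBV. Both genes separated the groups, with EtOH+MBV 1 lowest of its group, and rose 22.9-fold and 26.3-fold (adjusted p = 0.000104 and 0.000163). Slc39a14, a zinc and iron importer of the acute phase, was at 636 to 1301 CPM in EtOH+MBV and 267 to 338 CPM in PF+MBV, a 3.85-fold rise. The zinc transporter Slc39a5 was at 0.382 to 0.817 CPM in EtOH+MBV and at 3.82, 3.19, 3.02 and 14.0 CPM in PF+MBV (log2 -3.19 ± 0.48 SE, adjusted p = 0.000161), and at log2 -2.35 without PF+MBV 4, its highest library. Over the 10 metal handling genes tested, 4 were higher and 2 lower.

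The acute phase response was the list with the highest share of rises among the 46 gene lists described. Of 27 tested genes, 23 (85.2%) were higher and 1 lower, with a median log2 fold change of 1.57. Lcn2, the siderophore-binding lipocalin, stood at 158, 1813, 2053 and 1467 CPM in EtOH+MBV and at 5.64, 6.22, 8.69 and 13.1 CPM in PF+MBV. Even EtOH+MBV 1 lay above all PF+MBV libraries, and the rise was 163-fold (log2 7.35 ± 0.83 SE, adjusted p = 2.01e-05). Serum amyloid Saa1 was at 123, 2251, 2117 and 1198 CPM in EtOH+MBV and at 30.3, 26.4, 25.8 and 39.9 CPM in PF+MBV (46.5-fold, adjusted p = 0.00444). Saa2 was at 42.3, 1831, 1603 and 837 CPM in EtOH+MBV and at 15.2, 13.5, 13.1 and 21.8 CPM in PF+MBV (67.8-fold, adjusted p = 0.00484). In both genes EtOH+MBV 1 lay nearer to PF+MBV than to its own group. The log2 fold changes of Saa1 and Saa2 were 5.54 and 6.08 with EtOH+MBV 1, and 5.92 and 6.48 without it. The orosomucoid Orm3 rose 31.2-fold (log2 4.96 ± 0.69 SE), and log2 5.76 without PF+MBV 4, and Itih3, an inter-alpha-trypsin inhibitor heavy chain, rose 2.84-fold. Stat3, the factor that carries the IL-6 signal to these genes, was at 251, 308, 332 and 372 CPM in EtOH+MBV and at 124, 128, 117 and 120 CPM in PF+MBV, a 2.58-fold rise (adjusted p = 5.42e-05).

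Receptors and chemokines of inflammation were mixed. Of 30 tested cytokine and chemokine genes 9 were higher and 7 lower, with a median log2 of -0.16. Among the 30, 5 averaged under 1 CPM in EtOH+MBV or PF+MBV. The IL-1 receptor Il1r1 rose 6.95-fold, with 212 to 668 CPM in EtOH+MBV against 61.9 to 86.3 CPM in PF+MBV, and the endotoxin co-receptor Cd14 rose 6.5-fold, with 6.47 to 19.96 CPM in EtOH+MBV against 1.88 to 2.46 CPM in PF+MBV. The neutrophil attractant Cxcl1 was at 16.9, 18.4, 15.8 and 21.6 CPM in EtOH+MBV and at 4.00, 3.03, 4.22 and 2.41 CPM in PF+MBV (5.31-fold, adjusted p = 0.000514). The adhesion molecule Icam1 rose 2.51-fold. These were the 4 members of the list with the smallest p-values.

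Genes of the integrated stress response, which the factor ATF4 drives when protein synthesis is held back, rose together. Of 28 tested, 22 were higher and 1 lower (median log2 1.40). Atf4 itself was at 108, 172, 164 and 201 CPM in EtOH+MBV and at 65.7, 63.9, 54.6 and 62.2 CPM in PF+MBV, a 2.62-fold rise (adjusted p = 2.72e-05). Atf3, a stress-induced repressor, was at 9.05, 41.9, 126 and 442 CPM in EtOH+MBV and at 1.76, 1.89, 3.17 and 1.83 CPM in PF+MBV. All EtOH+MBV libraries were higher, but they spread over more than an order of magnitude, and the log2 fold change was 6.15 ± 0.92 SE (adjusted p = 0.000163), or 4.76 without EtOH+MBV 4. Psat1 of serine synthesis rose 31.6-fold, Mthfd2 of mitochondrial folate metabolism 14.1-fold and the amino acid transporter chain Slc3a2 2.15-fold. The death-linked factor Ddit3 was at 12.9, 53.5, 97.8 and 163 CPM in EtOH+MBV and at 6.41, 8.87, 6.403 and 6.59 CPM in PF+MBV (11.6-fold, adjusted p = 0.000491). The stress hormone Gdf15 was at 29.8, 43.7, 49.2 and 90.1 CPM in EtOH+MBV and at 25.6, 11.1, 17.4 and 18.3 CPM in PF+MBV (2.94-fold, adjusted p = 0.0068). The hormone Fgf21 was at 40.4, 39.1, 24.1 and 68.2 CPM in EtOH+MBV and at 9.23, 7.03, 11.1 and 10.7 CPM in PF+MBV (4.51-fold, adjusted p = 0.0213). Its groups did not overlap, yet the call was lost without EtOH+MBV 4 (adjusted p = 0.0671), PF+MBV 1 (0.0515) or PF+MBV 2 (0.0594). Of 20 aminoacyl-tRNA synthetases, which load amino acids onto tRNA and include ATF4 targets, 15 were higher and 0 lower (9 higher with library totals as the scaling). Eprs rose 1.64-fold and Lars 2.1-fold.

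Chaperones of the ER and targets of XBP1, the factor of the unfolded protein response, rose in 3 of 4 EtOH+MBV libraries. Of 28 tested, 17 were higher and 1 lower (median log2 0.67), with 21 higher and 2 lower without EtOH+MBV 1, 10 higher without EtOH+MBV 3 and 11 higher with library totals as the scaling. The mean log2 CPM of the list, relative to the mean of PF+MBV, was -0.12 in EtOH+MBV 1 and 0.93 to 1.26 in EtOH+MBV 2 to 4, against -0.09 to 0.20 in PF+MBV. Xbp1 was at 192, 261, 396 and 445 CPM in EtOH+MBV and at 138, 149, 143 and 122 CPM in PF+MBV (2.34-fold, adjusted p = 0.000472). The ER stress sensor Atf6 rose 1.58-fold. Derl3, a channel component of ER-associated degradation, was at 1.92, 38.0, 81.0 and 31.9 CPM in EtOH+MBV and at 1.35, 1.35, 0.885 and 2.58 CPM in PF+MBV. EtOH+MBV 1 lay inside the PF+MBV range. The log2 fold change was 4.63 ± 1.10 SE (adjusted p = 0.00428), or 3.96 without EtOH+MBV 3 and 5.03 without EtOH+MBV 1. Canx, the membrane chaperone calnexin, was the member that fell, at 295, 328, 301 and 292 CPM in EtOH+MBV and 386, 432, 383 and 367 CPM in PF+MBV (1.29-fold lower, adjusted p = 0.00713). Of 20 cytosolic heat shock chaperones 1 was higher and 6 lower, with 11 lower when library totals were the scaling and 12 lower in a fit of the 8 libraries alone. Hspa8, the constitutive Hsp70 of the cytosol, was 1.93-fold lower and Hsph1 3.54-fold lower.

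The promoters of 4 genes of these lists are shown because many genes of the ER and ATF4 lists are known to carry a short DNA element in common. The ER stress response element was searched as CCAAT and CCACG with NNNNNNNNN between them, and the ATF4 element as TGATGNAA, on both strands, in RefSeq promoter windows (GRCm38.p6) from 250 bases before to 50 bases after each annotated start. The first was found for 9 of the 24 ER list genes with a window (37.5%) and for 19 of 9861 tested genes with a window (0.193%). The second was found for 7 of 24 integrated stress response genes (29.2%) and for 283 of the 9861 (2.87%). The lists were drawn from knowledge of such elements, and no test was made. In all, 7 motifs were searched, each against 1 list. The interferon motif is described with its genes. The sterol element TCACNCCAC was found for 1 of 17 cholesterol synthesis genes with a window (5.88%) and for 150 of the 9861 (1.52%). The metal element TGCNCNC was found for 8 of 8 metal handling genes (100%) and for 6262 of the 9861 (63.5%). The antioxidant element TGACNNNGC was found for 8 of 22 NRF2 targets (36.4%) and 1668 of the 9861 (16.9%), and the STAT motif TTCNNNGAA for 6 of 23 acute phase genes (26.1%) and 842 of the 9861 (8.54%). In the 250 bases before the start, printed 5′ to 3′ on the strand of the gene, capitals mark the matching letters, which are the reverse complement of the searched motif in Derl3, Atf3 and Fgf21.
Derl3, chr10:75893148-75893397, plus strand: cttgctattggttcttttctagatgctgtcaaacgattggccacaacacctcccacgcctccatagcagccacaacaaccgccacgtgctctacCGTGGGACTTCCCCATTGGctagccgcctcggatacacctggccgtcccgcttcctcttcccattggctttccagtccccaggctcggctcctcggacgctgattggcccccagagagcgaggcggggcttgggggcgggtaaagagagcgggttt
Canx, chr11:50325674-50325923, minus strand: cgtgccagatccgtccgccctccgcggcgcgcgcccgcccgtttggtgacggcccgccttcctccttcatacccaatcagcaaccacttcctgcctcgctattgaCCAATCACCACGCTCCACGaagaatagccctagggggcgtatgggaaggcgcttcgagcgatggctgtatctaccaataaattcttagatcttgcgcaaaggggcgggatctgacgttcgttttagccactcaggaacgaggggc
Atf3, chr1:191183334-191183583, minus strand: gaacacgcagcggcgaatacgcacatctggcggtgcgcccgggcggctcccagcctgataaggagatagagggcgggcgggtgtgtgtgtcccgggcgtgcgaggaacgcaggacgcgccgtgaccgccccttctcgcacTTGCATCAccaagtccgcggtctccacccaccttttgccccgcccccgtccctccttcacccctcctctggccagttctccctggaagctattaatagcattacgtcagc
Fgf21, chr7:45615491-45615740, minus strand: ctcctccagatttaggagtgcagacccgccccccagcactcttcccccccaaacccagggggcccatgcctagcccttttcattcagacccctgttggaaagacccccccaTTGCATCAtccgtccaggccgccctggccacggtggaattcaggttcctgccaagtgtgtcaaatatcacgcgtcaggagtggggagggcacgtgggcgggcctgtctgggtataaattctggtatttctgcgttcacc
The match ends 137 bases before the start shown in Derl3, 126 in Canx, 102 in Atf3 and 131 in Fgf21. Where a gene has several annotated starts, a window with a match was chosen for printing, here and for the interferon motif. The Atf3 window lies inside the GENCODE span of the gene (191170296 to 191218039), so its start is an internal one. Derl3 and Canx share the ER element, and their levels changed in opposite directions.

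**Figure D2:**
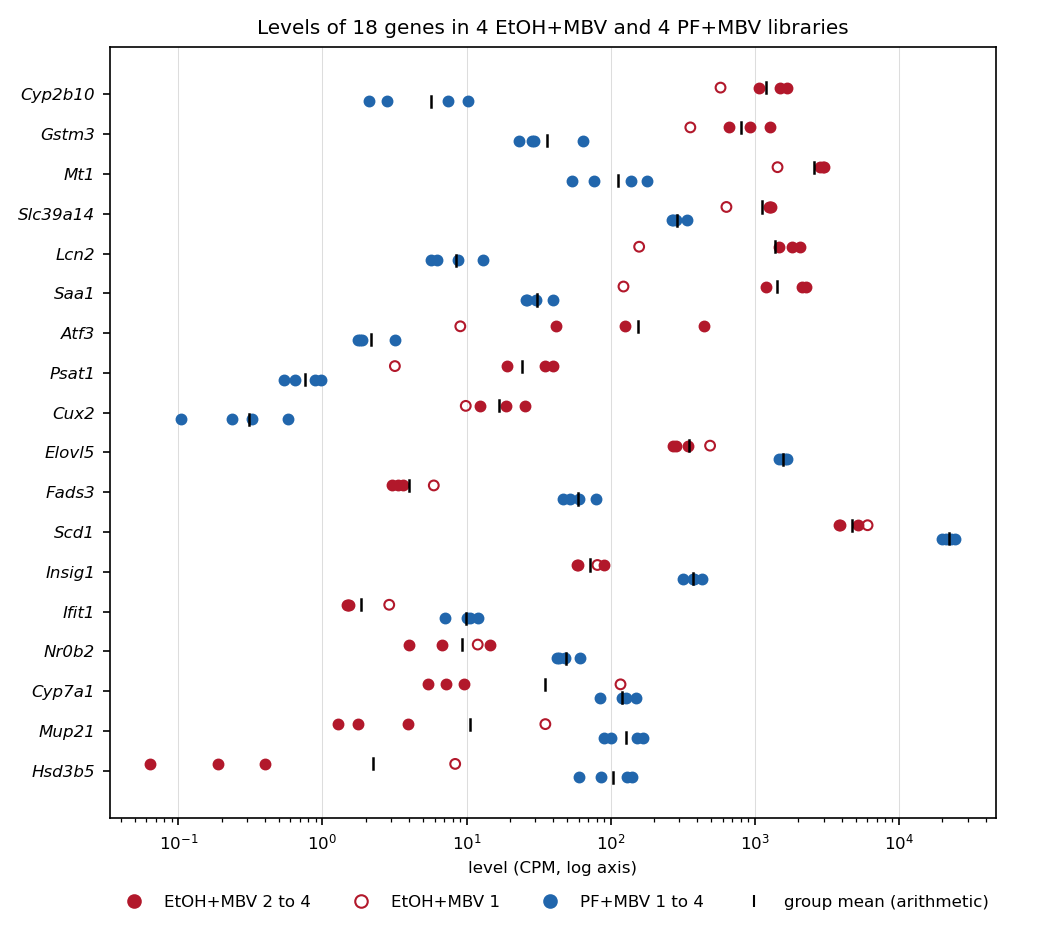
Levels of 18 genes in CPM on a log axis, with EtOH+MBV libraries in red above PF+MBV libraries in blue, EtOH+MBV 1 as an open circle, and group means as black ticks. EtOH+MBV 1 is the library of its group nearest to PF+MBV in all genes shown but Insig1 and Nr0b2, and lies inside the PF+MBV range for Cyp7a1, at 117 CPM.

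Immediate early genes, which transcription factors of the AP-1 and Egr families represent, rose in 17 and fell in 3 of 25 tested (median log2 1.31). Among the 25, 5 averaged under 1 CPM in EtOH+MBV or PF+MBV and can pass the filter only through groups in which they are high. Another 3 listed genes were not tested. Egr1 was at 126, 396, 228 and 427 CPM in EtOH+MBV and at 39.5, 20.3, 32.9 and 14.8 CPM in PF+MBV, a 10.9-fold rise without overlap (adjusted p = 1.83e-05). The AP-1 members Fosl2 and Jund rose 3.58-fold and 2.48-fold. Of 24 p53 targets 8 were higher and 1 lower, and 5 of the 24 had such low averages. Cdkn1a, the p21 inhibitor of the cell cycle, was at 125, 376, 357 and 383 CPM in EtOH+MBV and at 24.2, 30.01, 59.6 and 63.4 CPM in PF+MBV (7-fold, adjusted p = 0.0003). Gadd45a rose 19.1-fold, with log2 4.26 ± 0.53 SE, or 3.39 without EtOH+MBV 4, its highest library at 61.5 CPM. Sesn2, a stress-induced inhibitor of mTORC1, rose 3.06-fold.

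Ribosome assembly genes, whose products process and package ribosomal RNA in the nucleolus, rose in 16 and fell in 1 of 28 tested (median log2 0.54). Rrp12 was at 14.3, 24.1, 27.9 and 24.4 CPM in EtOH+MBV and at 6.58, 6.33, 6.97 and 6.36 CPM in PF+MBV. The PF+MBV libraries lay within a narrow band below all EtOH+MBV libraries, and the rise was 3.45-fold (log2 1.79 ± 0.22 SE, adjusted p = 3.75e-05). Nop58, a core protein of box C/D small nucleolar ribonucleoproteins, rose 3.97-fold, its partner Nop56 1.95-fold and Mybbp1a 1.74-fold.

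Fatty acid synthesis fell. Of 26 tested genes 21 (80.8%) were lower and 1 higher, with a median log2 of -1.18. Scd1, the stearoyl-CoA desaturase, was at 6060, 5222, 3886 and 3825 CPM in EtOH+MBV and at 21140, 22870, 24680 and 19910 CPM in PF+MBV. The groups were far apart, and the level fell 4.66-fold (log2 -2.22 ± 0.49 SE, adjusted p = 0.00247). The elongase Elovl5 was at 490, 272, 342 and 283 CPM in EtOH+MBV and at 1554, 1671, 1617 and 1472 CPM in PF+MBV (4.55-fold lower, adjusted p = 4.71e-06). Elovl2, which lengthens polyunsaturated fatty acids, fell 5.24-fold, the delta-5 desaturase Fads1 fell 2.95-fold, and Acss2, which makes acetyl-CoA from acetate, fell 2.71-fold. Fads3, a desaturase family member near Fads1 on chromosome 19, was at 5.92, 3.35, 3.06 and 3.64 CPM in EtOH+MBV and at 46.5, 59.8, 79.7 and 52.4 CPM in PF+MBV (14.8-fold lower, adjusted p = 7.55e-06).

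Cholesterol synthesis fell too. Of 25 tested genes 17 were lower and 0 higher (median log2 -1.02). Insig1, the sterol sensor that retains SREBP in the ER, was at 80.9, 89.2, 58.1 and 58.9 CPM in EtOH+MBV and at 374, 433, 377 and 316 CPM in PF+MBV. All EtOH+MBV libraries lay below PF+MBV, 5.23-fold lower (log2 -2.39 ± 0.31 SE, adjusted p = 5.42e-05). Acat2, the cytosolic thiolase of the first step, fell 3.04-fold. Outside the synthesis pathway, the phospholipid transfer protein gene Pltp was at 16.2 to 20.7 CPM in EtOH+MBV and 93.0 to 114 CPM in PF+MBV (5.45-fold lower, adjusted p = 1.32e-06). With vehicle Pltp was 7.01-fold lower in EtOH than in PF.

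Fatty acid oxidation and the targets of PPARA, the receptor that turns it on, fell in 10 and rose in 3 of 30 tested (median log2 -0.30), or fell in 16 with library totals as the scaling. Ppara was at 298, 178, 145 and 132 CPM in EtOH+MBV and at 501, 429, 563 and 566 CPM in PF+MBV (2.73-fold lower, adjusted p = 0.002). The fatty acid carrier Fabp1 fell 3.28-fold and the ketone body enzyme Bdh1 2.32-fold. Among 23 lipid droplet and lipid uptake genes 6 were higher and 1 lower. The count of lower genes was 4 without EtOH+MBV 1, 5 with library totals as the scaling and 7 in a fit of the 8 libraries alone. Hilpda, an inhibitor of droplet lipolysis, was at 3.07, 25.6, 22.5 and 69.9 CPM in EtOH+MBV and at 2.88, 2.27, 2.60 and 1.83 CPM in PF+MBV (log2 3.65 ± 0.73 SE, adjusted p = 0.00128, and 2.82 without EtOH+MBV 4). The droplet coat protein Plin3 rose 1.8-fold. Plin2, the main coat protein of hepatocyte droplets, was at 410, 852, 1109 and 1448 CPM in EtOH+MBV and 726, 617, 613 and 696 CPM in PF+MBV and did not pass (log2 0.53 ± 0.35 SE, adjusted p = 0.248), with EtOH+MBV 1 below and the other 3 above the PF+MBV range. Without EtOH+MBV 1 Plin2 did not pass either, by edgeR (log2 0.78, adjusted p = 0.0543).

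Alcohol-oxidising enzymes did not rise as a group. Of 15 tested genes 1 was higher and 6 lower (median log2 -0.23). Cyp2e1, known to be raised by ethanol mostly through protein stability, was at 7271, 6152, 6810 and 6274 CPM in EtOH+MBV and at 7578, 6682, 8454 and 7941 CPM in PF+MBV. The groups overlapped (log2 -0.21 ± 0.35 SE, adjusted p = 0.663). Aldh2 was at 2177 to 2272 CPM in EtOH+MBV and 2155 to 2454 CPM in PF+MBV (adjusted p = 0.831). Adh1, the main liver alcohol dehydrogenase, was at 1960, 2008, 2132 and 2024 CPM in EtOH+MBV and at 1395, 1423, 1505 and 1395 CPM in PF+MBV. The groups did not overlap and the difference was 1.42-fold, but its adjusted p of 0.0486 lay near the threshold. The call was lost whichever of the 8 libraries was left out (adjusted p = 0.0569 to 0.101). The vehicle library EtOH 1, which enters the shared spread, was at 1016 CPM, and EtOH 2 to 4 were at 1890 to 2502 CPM. Adh4, a retinol-oxidising class, was at 51.9, 19.1, 21.0 and 22.4 CPM in EtOH+MBV and at 147, 127, 118 and 114 CPM in PF+MBV (4.4-fold lower, adjusted p = 0.000142).

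Bile acid synthesis and transport genes fell in 10 and rose in 4 of 27 tested (median log2 -0.38). Cyp7a1, which starts the classic pathway from cholesterol to bile acids, was at 117, 7.23, 9.62 and 5.40 CPM in EtOH+MBV and at 120, 128, 150 and 84.2 CPM in PF+MBV. EtOH+MBV 1 lay among the PF+MBV libraries and the other 3 far below, so the difference did not pass (log2 -1.79 ± 0.76 SE, adjusted p = 0.0767) with it and passed without it (log2 -4.02, adjusted p = 1.86e-05). Nr0b2 (SHP), the bile acid-induced repressor of Cyp7a1, was at 11.9, 14.5, 4.01 and 6.79 CPM in EtOH+MBV and at 43.7, 61.3, 48.6 and 42.6 CPM in PF+MBV (5.26-fold lower, adjusted p = 0.000544). The export pump Abcc4 was at 20.1, 60.7, 22.8 and 24.8 CPM in EtOH+MBV and 4.29, 4.22, 3.70 and 5.96 CPM in PF+MBV (7.06-fold higher, adjusted p = 5.18e-05).

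Of 23 gluconeogenesis and glycogen genes 7 were lower and 3 higher, or 11 lower with library totals as the scaling. Pck1, the gate enzyme of gluconeogenesis, was at 3664, 2729, 1815 and 2707 CPM in EtOH+MBV and at 5072, 5315, 6441 and 5006 CPM in PF+MBV (2-fold lower, adjusted p = 0.00135). G6pc, the last step, was at 498, 192, 185 and 177 CPM in EtOH+MBV and at 662, 583, 704 and 641 CPM in PF+MBV. It did not overlap and did not pass (log2 -1.30 ± 0.53 SE, adjusted p = 0.0646), but passed at log2 -1.81 without EtOH+MBV 1. Ppp1r3g, a glycogen-targeting subunit of protein phosphatase 1, was at 0.764 to 1.89 CPM in EtOH+MBV and 15.4 to 25.3 CPM in PF+MBV (15.6-fold lower, adjusted p = 0.000962). Of 23 urea cycle and amino acid breakdown genes 7 were higher and 3 lower, among them Cps1, the first enzyme of the urea cycle (2.03-fold higher), and the alanine aminotransferase Gpt2 (2.27-fold higher). The count of 7 higher was 4 without PF+MBV 2, and the count of 3 lower was 6 with library totals as the scaling.

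Of 23 clock genes 9 (39.1%) were higher and 3 (13%) lower, with a median log2 of 0.49. The repressors Cry2 and Per2 rose 1.62-fold and 3.01-fold, and Nr1d1 (REV-ERB alpha) was at 29.8, 18.1, 14.6 and 26.1 CPM in EtOH+MBV and at 117, 142, 134 and 121 CPM in PF+MBV (5.78-fold lower, adjusted p = 0.000171). Per2 was at 54.2, 66.4, 74.5 and 75.3 CPM in EtOH+MBV and within 22.3 to 22.6 CPM in PF+MBV. The labels used here give no time of day of sampling.

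The sex pattern of the liver, which the pulses of growth hormone set through STAT5, shifted. Of 23 male-biased genes 11 were lower and 3 higher (median log2 -1.30), and 15 were lower and 3 higher without EtOH+MBV 1 (median -2.06). Hsd3b5, a male-specific hydroxysteroid dehydrogenase on chromosome 3 from 98618634 to 98630252, was at 8.34, 0.402, 0.0637 and 0.189 CPM in EtOH+MBV and at 140, 129, 86.1 and 60.5 CPM in PF+MBV. The log2 fold change was -5.45 ± 0.86 SE (adjusted p = 0.000221) and -8.87 without EtOH+MBV 1. Mup21, a major urinary protein gene, was at 35.2, 1.27, 3.95 and 1.76 CPM in EtOH+MBV and at 153, 167, 89.5 and 101.1 CPM in PF+MBV (log2 -3.57 ± 0.79 SE, adjusted p = 0.00255), and at -5.77 without EtOH+MBV 1. Ugt2b38, at 0 to 0.329 CPM in EtOH+MBV and 1.41 to 3.14 CPM in PF+MBV, was lower by log2 -3.78 ± 0.84 SE and by -4.39 without EtOH+MBV 1. The elongase Elovl3 fell 7.12-fold (log2 -2.83, or -3.44 without EtOH+MBV 1) and the peroxisomal CoA diphosphatase Nudt7 fell 4.14-fold, with all EtOH+MBV libraries below PF+MBV.

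Of the 20 female-biased genes listed only 11 passed the count filter, and 7 of them were higher and 0 lower. A gene low in one group can pass the filter only through the groups in which it is high, so the count says little about the list. Cux2, a repressor of male-biased genes in female liver, was at 9.87, 12.5, 18.9 and 25.6 CPM in EtOH+MBV and at 0.235, 0.325, 0.104 and 0.573 CPM in PF+MBV (53.4-fold higher, adjusted p = 9.39e-06). Cyp2b9 was at 1.21, 29.2, 30.8 and 15.8 CPM in EtOH+MBV and at 0.411, 0, 1.87 and 0.688 CPM in PF+MBV, with EtOH+MBV 1 inside the PF+MBV range. Its log2 fold change was 4.65 ± 0.90 SE (adjusted p = 0.00108), 5.72 without PF+MBV 3 and 5.05 without EtOH+MBV 1. Cyp2a4 was at 0.384, 9.38, 2.67 and 3.14 CPM in EtOH+MBV and 0.118, 0, 0.729 and 0.516 CPM in PF+MBV (log2 3.44 ± 1.09 SE, adjusted p = 0.022). Its value was log2 2.54 with adjusted p = 0.103 without EtOH+MBV 2, its highest library, and 4.17 without PF+MBV 3, and the call was also lost without PF+MBV 1 (adjusted p = 0.0577) or PF+MBV 2 (0.0595). The flavin monooxygenase Fmo2 rose 3.06-fold.

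In the growth hormone pathway itself, the receptor Ghr was at 380, 239, 233 and 227 CPM in EtOH+MBV and at 600, 638, 648 and 640 CPM in PF+MBV (2.34-fold lower, adjusted p = 0.000588). The STAT5-induced feedback genes Socs2 and Cish were higher. Socs2 was at 22.4, 25.6, 25.3 and 43.6 CPM in EtOH+MBV and at 6.05, 5.41, 8.85 and 5.39 CPM in PF+MBV (4.54-fold, adjusted p = 1.78e-05), and Cish was at 18.3 to 37.2 CPM in EtOH+MBV and 3.28 to 8.88 CPM in PF+MBV (3.91-fold, adjusted p = 0.00217). Igf1, the main growth hormone target of the liver, was at 533 to 666 CPM in EtOH+MBV and 397 to 469 CPM in PF+MBV, without overlap. It did not pass (log2 0.49 ± 0.24 SE, adjusted p = 0.122). The test shares its spread with the vehicle groups, where EtOH 1 was at 200 CPM and EtOH 2 to 4 at 429 to 643 CPM.

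**Figure D3:**
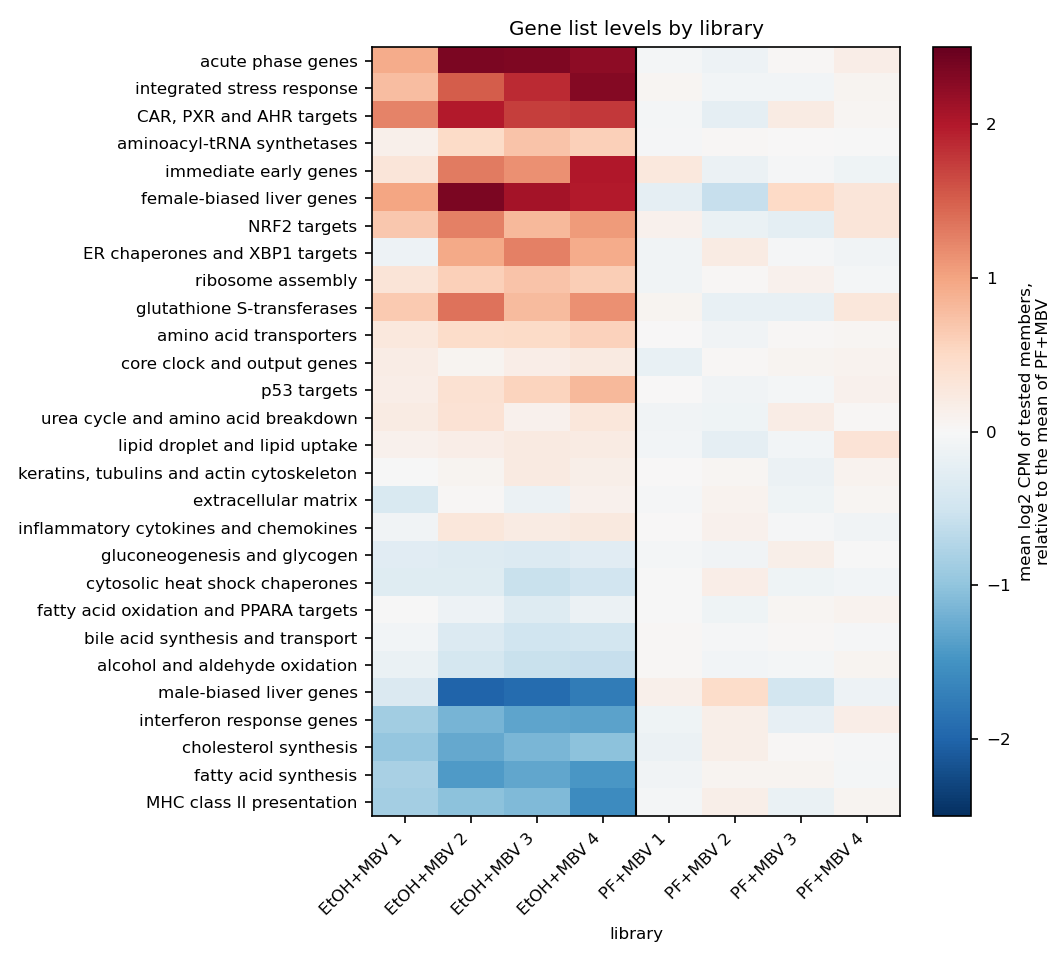
Mean log2 CPM of the tested members of 28 gene lists in each of the 8 libraries, relative to the mean of the PF+MBV libraries, with EtOH+MBV libraries left of the line and PF+MBV libraries right of it. EtOH+MBV 1 is paler than EtOH+MBV 2 to 4 in most lists, and close to PF+MBV for the ER chaperones (-0.12) and the male-biased genes (-0.36).

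Genes induced by interferon were lower in EtOH+MBV. Of 38 tested, 22 (57.9%) were lower and 0 higher, with a median log2 of -1.02. Among the 38, 6 averaged under 1 CPM in EtOH+MBV or PF+MBV and can pass the filter only through groups in which they are high. The count was 13 without EtOH+MBV 4, 14 without EtOH+MBV 2, EtOH+MBV 3, PF+MBV 2 or PF+MBV 4, and 22 without EtOH+MBV 1. Ifit1, an RNA-binding antiviral protein gene, was at 2.91, 1.47, 1.53 and 1.51 CPM in EtOH+MBV and at 7.11, 12.0, 10.1 and 10.6 CPM in PF+MBV (5.3-fold lower, adjusted p = 0.00292). Ifit3 was at 3.84, 2.48, 2.23 and 2.39 CPM in EtOH+MBV and at 8.82, 14.4, 12.0 and 15.3 CPM in PF+MBV (4.59-fold lower, adjusted p = 0.00389). Neither gene overlapped between the groups. Irf9, the DNA-binding subunit of the interferon-induced factor ISGF3, was at 21.4, 14.6, 12.7 and 18.2 CPM in EtOH+MBV and at 32.1, 36.6, 33.0 and 34.3 CPM in PF+MBV (2.03-fold lower, adjusted p = 0.000569). The guanylate-binding protein gene Gbp10 was at 0.0637 to 1.43 CPM in EtOH+MBV and 9.42 to 13.0 CPM in PF+MBV (log2 -3.98 ± 0.68 SE, adjusted p = 0.000409, and -4.75 without EtOH+MBV 1). Psmb9, a subunit of the immunoproteasome, was at 10.2, 5.02, 3.503 and 3.83 CPM in EtOH+MBV and at 13.0, 13.2, 9.68 and 13.5 CPM in PF+MBV (2.17-fold lower, adjusted p = 0.00927), with EtOH+MBV 1 inside the PF+MBV range. Its log2 fold change was -1.12 with EtOH+MBV 1 and -1.58 without it.

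The promoters of Ifit1 and Ifit3 are shown for the interferon-stimulated response element, the site that ISGF3 binds, which was searched as GAAA and GAAA with NN between them, on both strands. It was found for 18 of the 26 interferon list genes with a window (69.2%) and for 369 of 9861 tested genes with a window (3.74%). Both promoters lie on chromosome 19 (GRCm38.p6, RefSeq) and hold a pair of matches each, in capitals, here as the reverse complement.
Ifit1, chr19:34640639-34640888, plus strand: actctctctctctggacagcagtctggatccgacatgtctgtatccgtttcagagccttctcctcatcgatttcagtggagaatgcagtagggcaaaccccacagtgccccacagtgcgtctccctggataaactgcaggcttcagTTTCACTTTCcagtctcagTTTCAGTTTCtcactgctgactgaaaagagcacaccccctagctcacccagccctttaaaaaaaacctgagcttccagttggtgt
Ifit3, chr19:34583279-34583528, plus strand: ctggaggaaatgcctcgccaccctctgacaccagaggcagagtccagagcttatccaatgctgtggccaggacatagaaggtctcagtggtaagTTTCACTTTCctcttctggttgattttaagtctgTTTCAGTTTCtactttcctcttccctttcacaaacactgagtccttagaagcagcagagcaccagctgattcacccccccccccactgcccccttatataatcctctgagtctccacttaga
The matches end 94 and 75 bases before the start in Ifit1 and 146 and 112 bases before it in Ifit3.

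Antigen presentation on MHC class II, a function of macrophages, dendritic cells and B cells, was lower in 7 of 8 tested genes, with 0 higher (median log2 -1.24). H2-Aa was at 10.6, 7.70, 7.77 and 6.03 CPM in EtOH+MBV and at 22.3, 24.9, 22.2 and 24.7 CPM in PF+MBV (2.92-fold lower, adjusted p = 0.000315), and the invariant chain gene Cd74 was 1.94-fold lower. In bulk tissue, fewer cells of a type and less RNA per cell cannot be told apart. Macrophage and monocyte markers were lower in part. The summed level of 14 Kupffer cell markers was 306 to 434 CPM in EtOH+MBV and 411 to 491 CPM in PF+MBV, with 1 higher and 4 lower, with 1 lower without EtOH+MBV 3, EtOH+MBV 4 or PF+MBV 1, and with 2 lower without PF+MBV 2, PF+MBV 3 or PF+MBV 4 or with library totals as the scaling. The macrophage marker Adgre1 was at 11.2, 10.8, 7.77 and 8.29 CPM in EtOH+MBV and at 23.9, 20.7, 21.2 and 24.5 CPM in PF+MBV (2.37-fold lower, adjusted p = 0.0075). It was 1 of the 4 that were lower, and the 1 Kupffer cell marker that was higher is not named here. Of 12 tested monocyte and recruited macrophage markers 5 were lower and 2 higher, and their summed level was 77.6 to 102 CPM in EtOH+MBV and 122 to 149 CPM in PF+MBV. The monocyte genes named next are among the 5 that were lower, and the 2 that were higher are not named here. The monocyte receptor Ccr2 was at 0.503 to 0.823 CPM in EtOH+MBV and 1.46 to 2.22 CPM in PF+MBV (2.78-fold lower), Cx3cr1 at 0.0548 to 0.318 CPM in EtOH+MBV and 0.705 to 1.32 CPM in PF+MBV (log2 -2.94, or -3.87 without EtOH+MBV 3), and Fabp5 was 4.76-fold lower. B cell markers summed to 1.88 to 3.35 CPM in EtOH+MBV and 4.06 to 6.42 CPM in PF+MBV, and T and NK cell markers to 0.942 to 1.81 CPM in EtOH+MBV and 2.82 to 3.72 CPM in PF+MBV, over 5 of 12 and 4 of 16 listed genes that passed the filter. Neutrophil markers summed to 3.51 to 11.7 CPM in EtOH+MBV and 3.23 to 4.18 CPM in PF+MBV, over 7 of 13. All 5 of the B cell genes and all 4 of the T and NK cell genes that passed averaged under 1 CPM in 1 of the groups, as did 6 of the 7 neutrophil and 5 of the 12 monocyte genes. Such genes can pass the filter through the group in which they are high, so these sums say little about the lists. The part of these cells in the interferon and MHC class II results was not tested.

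Markers of liver endothelium were lower in 9 and higher in 1 of 21 tested, with a summed level of 692 to 879 CPM in EtOH+MBV and 930 to 1019 CPM in PF+MBV. Dnase1l3 was at 29.3, 26.4, 26.7 and 25.5 CPM in EtOH+MBV and at 81.7, 79.4, 86.6 and 72.9 CPM in PF+MBV. Both groups were tight, and the level was 2.97-fold lower (log2 -1.57 ± 0.12 SE, adjusted p = 1.32e-06). The inhibitory Fc receptor Fcgr2b was 2.64-fold lower and the VEGF receptor Kdr 2.03-fold lower. Lyve1, the hyaluronan receptor of sinusoidal endothelium, moved the other way, at 76.5, 110, 92.5 and 105 CPM in EtOH+MBV and at 21.2, 26.8, 28.4 and 34.7 CPM in PF+MBV (3.46-fold higher, adjusted p = 4.34e-05). Of 15 stellate cell markers 4 were higher and 4 lower, with 2 higher without EtOH+MBV 2, EtOH+MBV 4 or PF+MBV 3 or with library totals as the scaling. The collectin Colec10 was 2.31-fold lower, and the hepatocyte growth factor gene Hgf, which these cells secrete, was 2.2-fold higher. Among 13 hepatocyte markers 5 were higher and 1 lower. Their summed level, Alb included, was 150900 to 171100 CPM in EtOH+MBV and 116600 to 136800 CPM in PF+MBV. The part of this difference in the lower levels of other cell markers was not tested.

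The shares of matrix and cytoskeleton genes that passed were near those of all genes. Of 42 extracellular matrix genes 9 were higher and 8 lower (median log2 -0.17), with 5 lower without EtOH+MBV 2. Col1a1 was at 4.83, 9.11, 9.49 and 11.7 CPM in EtOH+MBV and at 8.05, 11.2, 10.6 and 14.8 CPM in PF+MBV, with overlap (adjusted p = 0.541), and the contractile actin Acta2 was at 0.402 to 2.14 CPM in EtOH+MBV and 1.29 to 4.38 CPM in PF+MBV (adjusted p = 0.0886, and passing without EtOH+MBV 1). Col14a1 was 2.14-fold lower, and the collagenase Mmp14 and the laminin chain Lama5 were 1.8-fold and 2.28-fold higher. Of 40 keratin, tubulin and actin cytoskeleton genes 9 were higher and 4 lower, with 5 higher when library totals were the scaling and 8 lower in a fit of the 8 libraries alone. Actg1 was at 236, 442, 464 and 767 CPM in EtOH+MBV and at 110, 96.7, 110 and 103 CPM in PF+MBV (4.54-fold higher, adjusted p = 3.15e-05). Tuba8 was higher by log2 2.49 ± 0.38 SE, and by 3.18 without PF+MBV 4. Krt8, the keratin of hepatocytes, was at 232, 321, 312 and 346 CPM in EtOH+MBV and at 190, 179, 172 and 224 CPM in PF+MBV (1.58-fold, adjusted p = 0.0307), and its call was kept without EtOH+MBV 1 or PF+MBV 4 and lost without any of the other 6 libraries (highest adjusted p = 0.0856, without EtOH+MBV 4).

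Cfd, the adipocyte protease also called adipsin, was at 0.165, 0, 0.255 and 0.0628 CPM in EtOH+MBV and at 12.8, 12.1, 3.28 and 66.3 CPM in PF+MBV (log2 -7.50 ± 1.01 SE, adjusted p = 7.5e-05, and -6.17 without PF+MBV 4). Of 10 adipocyte markers 6 passed the count filter, with 2 higher and 1 lower, and their summed level was 981 to 2749 CPM in EtOH+MBV and 1999 to 2762 CPM in PF+MBV. The part of attached fat tissue was not tested.

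The effect of the diet with MBV was then set beside that with vehicle (EtOH against PF), whose means come from 8 other libraries. Both effects share 1 estimate of spread per gene, so calls in the 2 settings are not independent. Leaving out EtOH+MBV 1 moved the calls with vehicle from 5137 to 5435. With vehicle 5137 genes (39.8%) passed, 2627 (20.4%) higher and 2510 (19.5%) lower, and 2623 passed in both, which is 56.6% of the calls with MBV and 51.1% of those with vehicle. The direction was the same for 2568 of them and opposite for 55. The difference between the effects was tested as an interaction, in which 530 of 12901 genes (4.11%) passed, 261 of them more positive and 269 more negative with MBV. With library totals as the scaling, which moved the median of the interaction over all genes to log2 -0.18, 93 were more positive and 256 more negative. The count of 530 was 169 to 711 when 1 of the 8 MBV libraries was left out, lowest without PF+MBV 4 and highest without EtOH+MBV 1. Without the vehicle library EtOH 1 the count was 531, of which 427 were among the 530. EtOH 1 stood apart from EtOH 2 to 4 in some genes. It was at 348 against 2419 to 5009 CPM for Scd1, and at 1110 against 4930 to 6789 CPM for Cyp2e1.

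**Figure D4:**
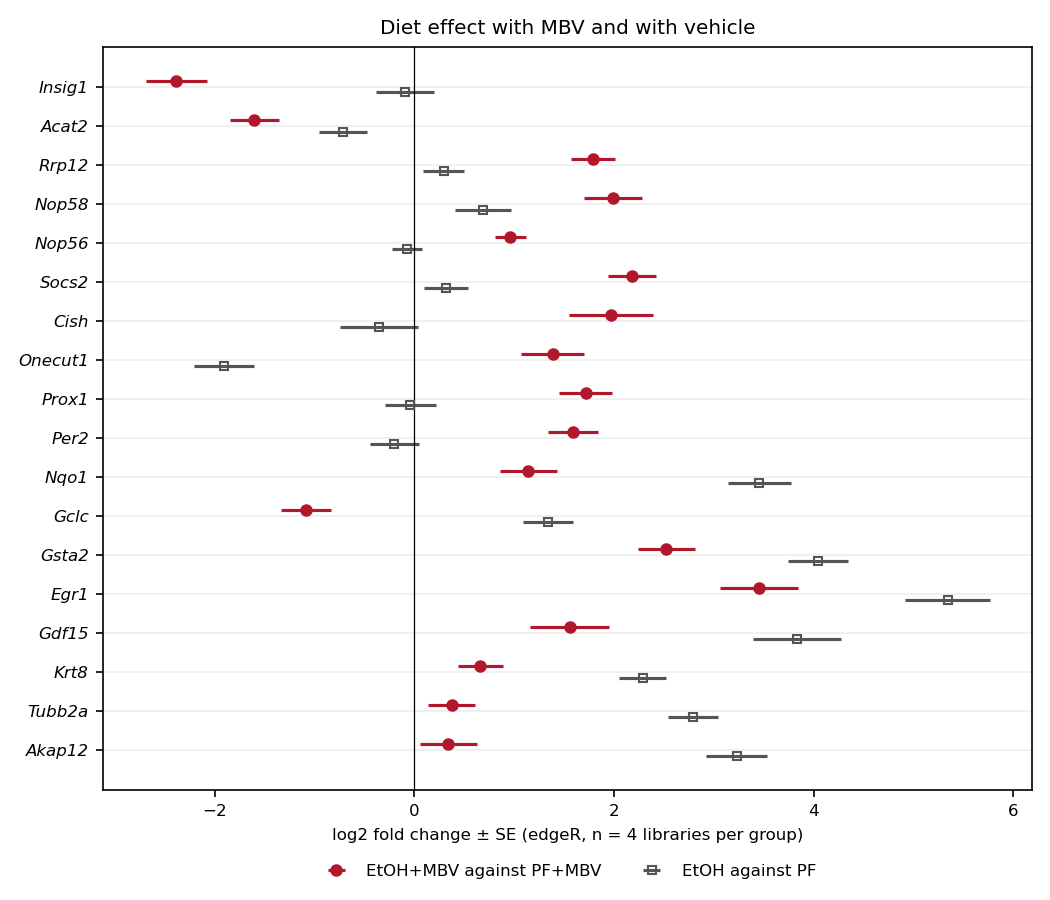
Log2 fold change with its SE for 18 genes in EtOH+MBV against PF+MBV (filled red circles) and in EtOH against PF (open grey squares), each from 4 libraries per group. Insig1 and Acat2 lie farther left with MBV than with vehicle, and Onecut1 and Gclc lie on opposite sides of 0.

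Cholesterol synthesis differed between the 2 settings. With MBV 17 of 25 genes were lower and 0 higher, with vehicle 2 were lower and 3 higher, and the interaction itself passed in 8 genes, all more negative with MBV (background 2.09%). Insig1 averaged 71.8 ± 15.7 CPM in EtOH+MBV and 375 ± 47.7 CPM in PF+MBV, and 164 ± 73.4 CPM in EtOH and 175 ± 68.7 CPM in PF (SD, n = 4 each), with an interaction of log2 -2.29 ± 0.42 SE (adjusted p = 0.0137). Its PF+MBV mean was the highest of the 4 groups. The desaturase family gene Fads3 had an interaction of log2 -1.91.

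Ribosome assembly genes rose with MBV (16 higher, 1 lower of 28) and not with vehicle (0 higher, 2 lower), and 6 passed the interaction, all more positive with MBV (background 2.02%). Rrp12 averaged 22.7 ± 5.84 CPM in EtOH+MBV and 6.56 ± 0.299 CPM in PF+MBV, and 17.6 ± 1.48 CPM in EtOH and 14.4 ± 4.31 CPM in PF (log2 1.495 ± 0.30 SE, adjusted p = 0.0188). Nop56 averaged 30.5 ± 5.36 CPM in EtOH+MBV and 15.7 ± 0.968 CPM in PF+MBV, and 27.4 ± 4.8 CPM in EtOH and 28.9 ± 4.93 CPM in PF (log2 1.04 ± 0.22 SE, adjusted p = 0.02). In both genes PF+MBV had the lowest mean of the 4 groups.

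Of 31 hepatocyte transcription factors, 8 were more positive and 1 more negative with MBV in the interaction (background 2.02% and 2.09%). Onecut1 (HNF6), a regulator of hepatocyte and bile duct genes on chromosome 9 from 74861921 to 74891781, averaged 15.4 ± 7.71 CPM in EtOH+MBV and 5.92 ± 0.984 CPM in PF+MBV, and 14.3 ± 1.59 CPM in EtOH and 53.6 ± 20.8 CPM in PF. Ethanol was thus 2.61-fold above pair feeding with MBV and below it with vehicle (log2 1.38 ± 0.32 and -1.91 ± 0.30 SE), and the interaction was log2 3.29 ± 0.44 SE (adjusted p = 0.00458). Prox1 averaged 137 ± 16.5 CPM in EtOH+MBV and 41.8 ± 6.65 CPM in PF+MBV, and 79.4 ± 36.2 CPM in EtOH and 81.6 ± 23.5 CPM in PF (log2 1.76 ± 0.37 SE, adjusted p = 0.0202). Foxa3 rose 2.47-fold with MBV and its interaction did not pass (adjusted p = 0.0678, and 0.0404 without EtOH+MBV 1). The feedback genes Socs2 and Cish had interactions of log2 1.87 and 2.32, and Per2 of 1.79, with PF+MBV the lowest group in all 3.

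The diet effect was more negative with MBV than with vehicle in some defence, early response, cytoskeleton and matrix genes. Of 26 NRF2 targets 11 passed the interaction and all were more negative with MBV, as were 6 of 25 immediate early genes, 12 of 40 cytoskeleton genes and 8 of 42 matrix genes. Over all tested genes 2.09% passed as more negative. Nqo1 averaged 19.4 ± 3.33 CPM in EtOH+MBV and 8.78 ± 3.52 CPM in PF+MBV, and 36.8 ± 13.4 CPM in EtOH and 3.36 ± 0.656 CPM in PF (log2 -2.31 ± 0.41 SE, adjusted p = 0.0134). Gclc averaged 183 ± 49.4 CPM in EtOH+MBV and 390 ± 82.0 CPM in PF+MBV, and 346 ± 89.1 CPM in EtOH and 137 ± 50.9 CPM in PF, so that ethanol was below pair feeding with MBV and above it with vehicle (log2 -2.43 ± 0.35 SE, adjusted p = 0.00468). Tubb2a, a beta tubulin, averaged 151 ± 46.5 CPM in EtOH+MBV and 117 ± 15.8 CPM in PF+MBV, and 180 ± 36.4 CPM in EtOH and 26.1 ± 8.16 CPM in PF (log2 -2.42 ± 0.33 SE, adjusted p = 0.00468). The kinase-anchoring scaffold Akap12 averaged 12.0 ± 2.43 CPM in EtOH+MBV and 9.49 ± 1.29 CPM in PF+MBV, and 53.3 ± 26.9 CPM in EtOH and 5.67 ± 0.822 CPM in PF (log2 -2.89 ± 0.41 SE, adjusted p = 0.00468). In Nqo1 and Akap12 EtOH had the highest mean of the 4 groups, and in Gclc and Tubb2a PF had the lowest.

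**Figure D5:**
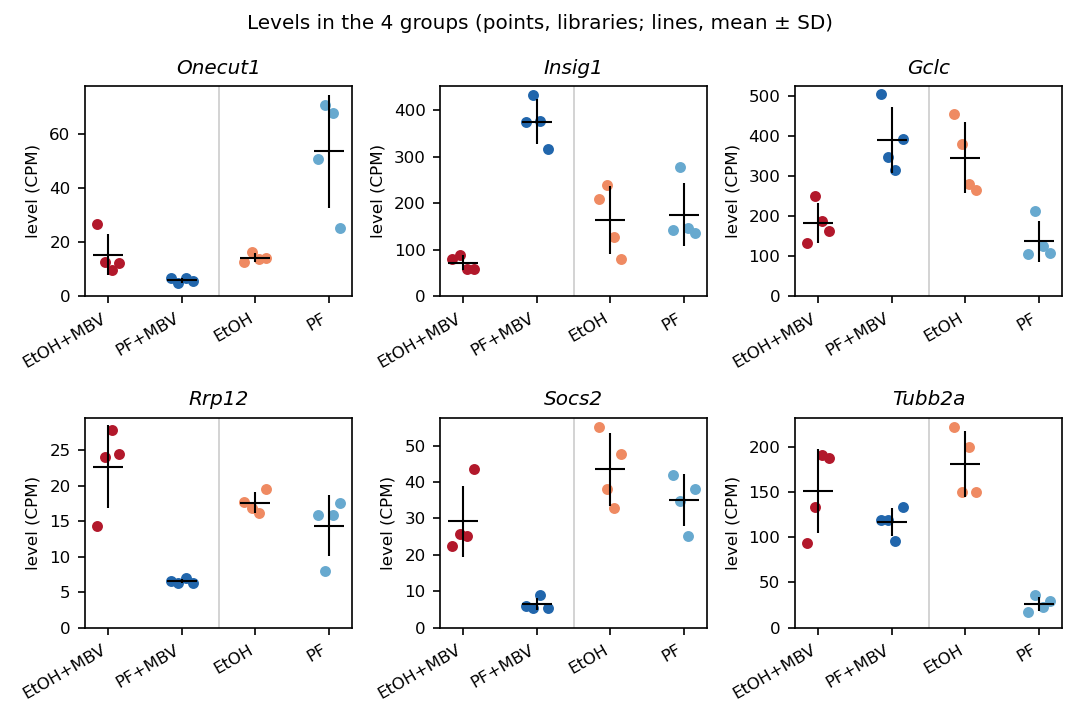
Levels of 6 genes in CPM in every library of the 4 groups, each pair with its ethanol group left of its pair-fed group, with black lines for mean and SD (n = 4). The PF+MBV mean is below the PF mean in Onecut1, Rrp12 and Socs2 and above it in Insig1, Gclc and Tubb2a.

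The smallest interaction p-values belonged to Id2, Clec14a and Onecut1. Id2, an inhibitor of basic helix-loop-helix factors, averaged 60.0 ± 4.47 CPM in EtOH+MBV and 46.3 ± 3.31 CPM in PF+MBV, and 52.2 ± 10.6 CPM in EtOH and 109 ± 12.2 CPM in PF (log2 1.43 ± 0.18 SE, adjusted p = 0.00458). Its own difference with MBV (log2 0.37, adjusted p = 0.0319) was lost without EtOH+MBV 1 (adjusted p = 0.0597), EtOH+MBV 3 (0.0737), PF+MBV 1 (0.0922), PF+MBV 3 (0.053) or PF+MBV 4 (0.0657). The endothelial lectin Clec14a averaged 9.50 ± 1.02 CPM in EtOH+MBV and 15.1 ± 1.14 CPM in PF+MBV, and 4.37 ± 0.984 CPM in EtOH and 19.96 ± 2.1 CPM in PF (log2 1.53 ± 0.20 SE). The translation regulator Cpeb2 had an interaction of log2 -1.39, the calcium channel Itpr1 of 1.37 and the histone gene Hist3h2a of 2.55. Several lists kept one direction in both settings without an interaction call, among them the ER chaperones (17 higher with MBV and 14 with vehicle, of 28) and the aminoacyl-tRNA synthetases (15 and 13, of 20). Interferon genes were lower in 22 of 38 and higher in 0 with MBV (median log2 -1.02). With vehicle 4 were lower and 2 higher, with a median log2 of 0.24. The interaction passed in 2, both more negative with MBV (background 2.09%). The difference between the list counts of 22 and 4 was not itself tested. Acute phase genes rose in 23 of 27 with MBV and in 15 with vehicle, and the interaction passed in 2, both more positive with MBV (background 2.02%).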

How the data were processed

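Polyadenylated RNA of mouse liver was sequenced in 16 libraries, 4 per group. The authors deposited 1 table per library of read counts per gene, with no normalization. Per the submitters' processing notes, Trimmomatic, STAR and the mouse build mm10 were used, while no version or annotation is stated there. The unstranded column was used, because neither stranded column held a clear majority of reads, so overlapping antisense genes cannot be told apart. All 16 libraries entered 1 fit in edgeR 4.0.16 and R 4.3.3, with a mean for each group (quasi-likelihood, TMM scaling, filterByExpr with a minimum count of 10), which tested 12901 of 24411 gene symbols and was tested on simulated data. Levels are CPM on TMM-scaled totals, with a prior count of 2 on the log2 scale. The 4 table rows that name no gene were left out of totals. DESeq2 1.42.0 and limma 3.58.1 were alternatives. Gene lists (46) and cell type marker lists (14) had 1349 entries, of which 1238 were tested. The members, lists and naming rule were chosen with earlier results of these data known. The rule names the 15 largest rises and falls without overlap of the 4 and 4 libraries whose higher mean was 1 CPM or more, up to 4 members per list and up to 12 interaction genes with the smallest p, and 26 fixed genes; some genes that it names are not reported here. Coordinates come from GENCODE annotation of GRCm38.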

Additional observations from a re-analysis of the deposited data

Results flagged for a closer look

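Of 298 groups of 4 libraries examined, 32 had a library far from the other 3, and chance gives about 1 in 20 such groups. In 19 of the 32 it was EtOH+MBV 1. Its levels in CPM were 1438 for Mt1, 635.5 for Slc39a14, 169.7 for Eprs, 125.4 for Cdkn1a, 2.906 for Ifit1 and 3.839 for Ifit3. For lipid, bile acid and glucose genes they were 510.8 for Fads1, 1641 for Fabp1, 117 for Cyp7a1, 498.2 for G6pc and 51.93 for Adh4. For male-biased, growth hormone and other liver genes they were 8.336 for Hsd3b5, 35.21 for Mup21, 380.1 for Ghr, 26.82 for Onecut1, 0.2742 for Clec2h, 2.577 for Olig1, 2.742 for Slc22a28 and 206.9 for the carboxylesterase Ces3b. Among the other EtOH+MBV libraries, Abcc4 was at 60.67 CPM in EtOH+MBV 2, Cx3cr1 at 0.3184 CPM in EtOH+MBV 3, and Socs2 at 43.6 and Fabp5 at 7.288 CPM in EtOH+MBV 4. In PF+MBV 4, levels that stood apart were 64.05 CPM for Gstm3, 14.04 for Slc39a5, 4.354 for Tuba8, 66.35 for Cfd and 337.6 for Bdh1. Atf3 was at 3.175 and Psmb9 at 9.682 CPM in PF+MBV 3, and Ddit3 was at 8.869 CPM in PF+MBV 2, which also had 16.04% of its reads unmapped.

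The diet effect with MBV differed from that with vehicle, by edgeR's interaction test, in 25 of the 143 genes named here. Over all 12901 genes the share was 4.11%. The naming rule took up to 12 genes for their small interaction p-values, so the count of 25 was partly fixed in advance. The diet effect was more negative with MBV by log2 -1.518 for Gsta2, -2.314 for Nqo1, -2.426 for Gclc, -2.281 for Gdf15, -1.889 for Egr1 and -1.937 for Abcc4. The sterol and lipid genes had -1.908 for Fads3 and -2.288 for Insig1. Further negative values were -0.7214 for Dnase1l3, -1.624 for Krt8, -2.417 for Tubb2a, -2.888 for Akap12, -2.448 for Mapk15 and -1.395 for Cpeb2. It was more positive with MBV by log2 1.495 for Rrp12, 1.038 for Nop56, 1.867 for Socs2, 2.324 for Cish, 1.792 for Per2 and 1.755 for Prox1. The remaining positive values were 1.428 for Id2, 1.526 for Clec14a, 3.291 for Onecut1, 1.373 for Itpr1 and 2.554 for Hist3h2a. Without EtOH+MBV 1 the calls of Gsta2 (adjusted p = 0.0507) and Abcc4 (0.0536) were lost.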

How the results depend on the processing

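The 4633 calls between EtOH+MBV and PF+MBV were 4132 to 5497 under the alternatives of scaling, filter, tool, column and samples, and 3412 (without EtOH+MBV 4) to 5334 (without EtOH+MBV 1) when 1 of the 8 libraries was left out. A minimum change of 2-fold left 1405. In all, 2978 genes were called in every such leave-one-out fit. The 530 interaction calls were 349 with library totals only (93 more positive and 256 more negative with MBV), 1113 with DESeq2 and 169 to 711 when 1 library was left out, so their number rests on single libraries; the cause was not tested. Without EtOH 1, a setting chosen after seeing the data, the counts were 5512 and 531. The near-equal 531 held only 427 of the 530 interaction calls. EtOH 1 stood apart in its group, with a TMM scaling factor of 1.27 against 0.863 to 1.01 in EtOH 2 to 4. It enters the spread of every gene, the vehicle effect and the interaction. Same-numbered libraries did not deviate together (r of -0.0515 to 0.0374), and the replicate block gave 4475 calls, 514 for the interaction and 4883 for EtOH against PF. The difference in reads without a gene feature, 0.0198 percentage points, ranged from -0.0856 to 0.0984 when 1 library was left out, and reversed to -0.0856 without EtOH+MBV 3 and -0.0427 without PF+MBV 3. None of the 143 genes named in the text reversed its direction in any of the 18 alternatives in which it was tested. Of these genes, 3 gained a call in a fit of the 8 libraries alone, and 3 gained one without EtOH 1. With 4 libraries a group, exact tests of single values cannot go below p = 0.0286.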

Other observations

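Over all tested genes 19.2% were higher and 16.7% lower in EtOH+MBV, and shares near these say little about a list. Of 28 cell cycle and DNA replication genes 5 (17.9%) were lower and 0 higher (median log2 -0.75). In a fit of the 8 libraries alone 15 were lower, and 16 were lower without EtOH 1. The count of lower genes was 2 or 3 without EtOH+MBV 2, EtOH+MBV 3, EtOH+MBV 4 or PF+MBV 4. Among the 28, 12 averaged under 1 CPM in EtOH+MBV or PF+MBV. Of 30 nuclear-encoded genes of oxidative phosphorylation 3 (10%) were lower and none passed as higher. The count of lower genes was 21 with library totals as the scaling, 9 in a fit of the 8 libraries alone and 6 without EtOH+MBV 1, so it depends on the scaling. Of 31 proteasome genes 5 (16.1%) were lower and 1 higher, with 11 lower under library totals, 8 without EtOH+MBV 1, 2 without EtOH+MBV 3 and 3 without EtOH+MBV 4, PF+MBV 2 or PF+MBV 3. Of 14 MHC class I genes 3 (21.4%) were lower and 1 higher, with 5 lower in a fit of the 8 libraries alone. Of 34 coagulation and complement genes 7 (20.6%) were lower and 3 (8.82%) higher, with 11 lower under library totals, 6 higher in a fit of the 8 libraries alone and 7 higher with DESeq2. Amino acid transporters were higher in 10 (41.7%) and lower in 3 of 24 (median log2 0.35). Iron handling genes were higher in 7 (35%) and lower in 2 of 20, with 4 higher under library totals.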
